A study of Mus musculus with 20 samples.

Results

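Pdx1, Mafa, Nkx6-1, Nkx2-2, Neurod1, Isl1, Pax6, Foxa2 and Rfx6 encode transcription factors of the beta cell and of the pancreatic islet. They were followed across 20 microarrays of mouse islets and islet grafts from pregnant mice (P12.5, with 12.5 the day of gestation) or non-pregnant mice (NP). These 9 genes of 19938 genes with a probe set of their own were chosen by name, and each was read from the probe set annotated to that gene alone. Each of the 9 had exactly 1 such probe set. Values are log2 expression levels, so a difference of 1 is a 2-fold difference, and levels of different genes cannot be set against each other because each probe set has its own response.

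The arrays fell into 6 groups, all on the C57bl6/J background. Male grafts at P12.5 (n = 3) and NP (n = 3) were islets of male donors placed under the kidney capsule of female hosts, and female grafts at P12.5 (n = 3) and NP (n = 3) were islets of female donors placed in the same way. Islets of the pancreas at P12.5 (n = 4) and NP (n = 4) came from female mice without a transplant. The hosts of all grafts, NP hosts included, had first been made diabetic with streptozotocin, which kills beta cells, and only those whose blood glucose the graft had restored were mated. The labels give no ages, and the study's methods describe donors and hosts as adults a few months old. The islet arrays are labelled as a reanalysis, so the site of the islets, the streptozotocin treatment of the host and the series of arrays cannot be told apart in any comparison of grafts with islets. The labels call the replicates biological but name no animals, so a p-value here weighs a difference against the spread of the arrays, which may in part be technical.

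Beta cells are specified and kept in their identity by a network of transcription factors that bind their own and each other's genes. Pdx1, Nkx6-1 and Mafa act mainly in beta cells of the adult mouse and bind or regulate the insulin genes, whereas Nkx2-2, Neurod1, Isl1, Pax6, Foxa2 and Rfx6 are shared with other endocrine cells. In pregnancy, lactogenic hormones act on the prolactin receptor of beta cells, which raise their insulin secretion and divide.

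All 9 genes were measured well above the middle of the array. Their mean levels lay between the 80 and the 97.5 percentile of all probe sets. The median of all probe sets was 5.9 or 6 on every array. The mean of 9 endocrine granule genes, which mark hormone secreting cells, lay between 10.8 and 11.4 on all 20 arrays, so endocrine RNA was present in every group. The grafts also held RNA of other cells. The mean of 28 measured kidney markers was 6.39 to 7.99 in P12.5 male grafts, 6.43 to 7.97 in NP male grafts, 6.01 to 7.15 in P12.5 female grafts, 7.68 to 8.31 in NP female grafts and 5.57 to 5.71 in islets. The mean of 17 acinar markers ran the other way, at 5.05 to 5.36 in grafts and 7.58 to 9.51 in islets. In such bulk samples, fewer cells of a type and less RNA per cell cannot be told apart.

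In islets and in female grafts, Mafa and Rfx6 showed the largest pregnancy differences among the 9 genes, in opposite directions. Mafa, an activator of insulin gene transcription that marks mature beta cells, passed the test in female grafts, where it was 2-fold higher at P12.5, with differences of 0.425 in islets and 0.13 in male grafts that did not pass. Rfx6, a winged-helix factor required for the endocrine cells of the islet, had a lower mean at P12.5 in all 3 tissues and passed over the grafts of both donor sexes, at 1.64-fold lower. Foxa2, a pioneer factor that opens chromatin in endoderm and regulates Pdx1, also had a lower mean at P12.5 in all 3 tissues, by less than 1.5-fold in each.

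**Figure D1:**
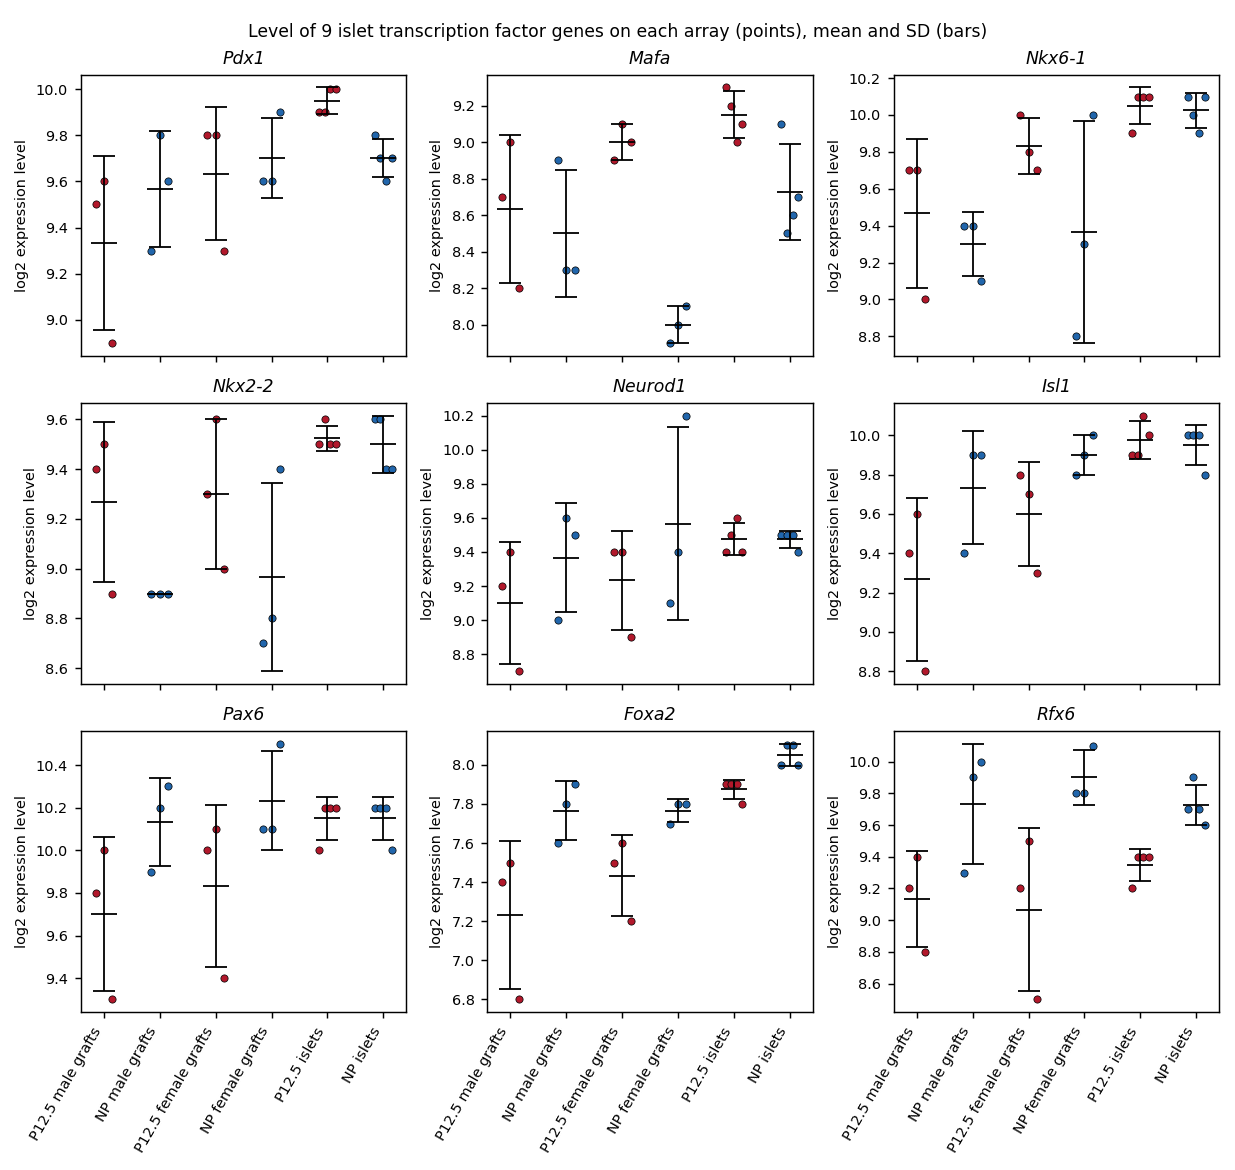
Log2 level of each of the 9 genes (one panel each) on each of the 20 arrays, by group on the horizontal axis: points are arrays (red for P12.5, blue for NP), the long line is the group mean and the bars are 1 SD. Mafa in NP female grafts sits between 7.9 and 8.1, below every other array, and P12.5 male graft 3 is the lowest point of its group for all 9 genes.

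Sequence was at hand for the start sites of 8 of the 9 genes, in 11 windows of 250 bases before to 50 bases after the start (RefSeq, build GRCm38.p6). The windows of Rfx6 and Foxa2 are shown because both genes had lower means at P12.5 in all 3 tissues. Capitals mark each match to TAAT, the core that homeodomain factors such as Pdx1, Nkx6-1, Isl1 and Pax6 can bind, on either strand (ATTA is the same core on the other strand, and TAATTA holds 2 overlapping matches). For Foxa2, the most upstream of its 3 windows is given.
Rfx6 (chr10:51685268-51685567, plus strand): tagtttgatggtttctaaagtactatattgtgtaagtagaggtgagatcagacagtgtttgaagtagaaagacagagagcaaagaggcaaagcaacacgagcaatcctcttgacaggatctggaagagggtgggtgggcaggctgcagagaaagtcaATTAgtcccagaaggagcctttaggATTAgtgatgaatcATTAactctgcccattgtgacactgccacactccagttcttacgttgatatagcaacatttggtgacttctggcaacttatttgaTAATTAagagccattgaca
Foxa2 (chr2:148046920-148047219, minus strand): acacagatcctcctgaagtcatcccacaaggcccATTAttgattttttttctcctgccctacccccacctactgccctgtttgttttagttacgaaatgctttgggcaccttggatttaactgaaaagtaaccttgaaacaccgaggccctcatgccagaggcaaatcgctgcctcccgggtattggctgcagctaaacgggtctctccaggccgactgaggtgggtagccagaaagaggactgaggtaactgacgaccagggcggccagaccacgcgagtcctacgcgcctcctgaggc

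The Rfx6 window held 5 matches to TAAT, while 6.86% of all 32851 windows held at least 5, and the median window held 1. G and C made up 42.3% of the Rfx6 window, against 46.3% to 69% in the other windows of members. The count was not adjusted for this. At least 1 match was present in 58.0% of all windows. The windows of Pax6 and Isl1 held 2 matches each, that of Nkx2-2 held 1, those of Foxa2 held 0 to 2, and those of Pdx1, Nkx6-1 and Neurod1 held 0. The E-box CANNTG, which reads the same on both strands and is bound by Neurod1 with its partners, occurred 3 times in the windows of Pdx1 and Nkx2-2, and at least once in 72.3% of all windows. The motif TTCNNNGAA, bound by STAT factors and also the same on both strands, was in 0 of the 11 windows and in 8.30% of all windows. These matches describe letters within these windows and show no binding.

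Mafa differed most between P12.5 and NP in the female grafts. Its level was 8.9, 9.1 and 9.0 in P12.5 female grafts, against 7.9, 8.0 and 8.1 in NP female grafts. The groups did not overlap, which held for 21.1% of all probe sets, and the gap between them was far wider than the spread within either. The difference was 1.00 ± 0.21 (SE, limma, adjusted p = 0.0385). Mafa was the only one of the 9 genes called in this comparison, where called means a fold change of 1.5 or more and an adjusted p below 0.05. Of all probe sets, 1.7% were called. The call was narrow: leaving out any 1 of the 6 female graft arrays kept the difference between 0.95 and 1.05 but moved the adjusted p above 0.05 each time. Kidney marker RNA moved with the same groups, with means of 6.01 to 7.15 in P12.5 female grafts and 7.68 to 8.31 in NP female grafts. With the mean of the kidney markers as a covariate, the Mafa difference was 0.65 (limma, adjusted p = 0.314). That covariate separates the groups without overlap. With it 7 of all 35511 probe sets were called, against 602 without it, so the lost call does not single out Mafa. The part of kidney RNA in the result was not tested further. Relative to the mean of the endocrine granule genes the Mafa difference was 0.96, and the call was lost (limma, adjusted p = 0.0674). Chgb, one of these genes, was itself higher in P12.5 than in NP female grafts. With Chgb left out of that mean, the Mafa difference was 1.10 and the call was kept.

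In islets of the pancreas Mafa was 9.3, 9.2, 9.0 and 9.1 at P12.5, against 9.1, 8.5, 8.6 and 8.7 at NP. One NP islet array reached into the range of P12.5. The difference was 0.425 ± 0.13 (SE), and it did not pass the test (limma, adjusted p = 0.211). Without that NP array it was 0.55, with an adjusted p of 0.0526 by limma. Of the 9 genes, 0 were called in islets, where 0.724% of all probe sets were called. An unadjusted p under 0.05 by limma was found for 4 of them, Mafa, Rfx6, Pdx1 and Foxa2, and for 4208 of all 35511 probe sets.

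In male grafts Mafa was 8.7, 9.0 and 8.2 at P12.5, against 8.9, 8.3 and 8.3 at NP. Here the groups overlapped almost fully. The difference was 0.13 ± 0.21 (SE, limma, adjusted p = 0.760), and it ran from -0.05 to 0.35 when single arrays were left out. The 2 arrays that stand against a rise were P12.5 male graft 3, at 8.2, and NP male graft 1, at 8.9. The first had the highest mean of 20 stromal markers of all arrays (9.58) and the lowest mean of the endocrine granule genes (10.8), and the second had the highest mean of 23 immune markers (8.45). Their part in the result was not tested. No member was called in male grafts (0 of 9 by limma, 0.932% of all probe sets called). An unadjusted p under 0.05 was found for 2, Foxa2 and Rfx6, and for 6926 of all 35511 probe sets.

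The pregnancy differences of Mafa in female and male grafts were compared directly. The male minus the female difference was -0.87 ± 0.29 (SE), with an unadjusted p of 0.0121 and an adjusted p of 0.955 by limma. A difference between donor sexes was thus not shown after adjustment. Of all probe sets, 0% passed this interaction test. It was made up of a difference in each state. Mafa in NP male grafts exceeded that in NP female grafts by 0.50 ± 0.21 (SE, limma, adjusted p = 0.975), and the groups did not overlap, as for 5.62% of all probe sets. In the same comparison 21 of 23 immune markers were higher in NP male grafts, with a median difference of 0.53. Of the 23, 10 had an unadjusted p under 0.05 by limma, beside 1777 of all 35511 probe sets. Of 28 kidney markers, 27 were lower (median -0.67). Their part in the Mafa difference was not tested. At P12.5 the male grafts differed from the female grafts by -0.37 ± 0.21 (SE, limma, adjusted p = 0.977).

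Rfx6 had a lower mean in each tissue at P12.5. Its level was 9.2, 9.5 and 8.5 in P12.5 female grafts, against 9.8, 9.8 and 10.1 in NP female grafts. All P12.5 values lay below all NP values, as for 9.13% of all probe sets, and 21.1% did not overlap in either direction. The difference was -0.83 ± 0.26 (SE, limma, adjusted p = 0.109). In male grafts it was 9.2, 9.4 and 8.8 at P12.5, against 9.3, 9.9 and 10.0 at NP. These groups overlapped by 1 NP array, and the difference was -0.60 ± 0.26 (SE, limma, adjusted p = 0.239).

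Over grafts of both donor sexes, Rfx6 fell by 0.72 ± 0.19 (SE, limma, adjusted p = 0.0297). Of the 9 members, 6 had an unadjusted p under 0.05 by limma, as had 10967 of all 35511 probe sets. Rfx6 was the only member called of the 9, where 3.96% of all probe sets were called. Leaving out single arrays gave differences of -0.83 to -0.58, and the call was lost without P12.5 female graft 3, P12.5 male graft 3, NP female graft 3, NP male graft 2 or NP male graft 3. With the kidney marker mean as a covariate the difference was -0.76 and the call was lost (limma, adjusted p = 0.0704). In the same comparison 23 of 28 kidney markers had negative differences (median -0.57, 1 called lower), 6 of 23 immune markers were called lower, and all 14 endothelial markers had positive differences with 0 called by limma (3 with an unadjusted p under 0.05). Their part in the Rfx6 difference was not tested further. The sign was the same in islets: Rfx6 was 9.2, 9.4, 9.4 and 9.4 in P12.5 islets, against 9.7, 9.9, 9.7 and 9.6 in NP islets. Those groups did not overlap either, as for 5.47% of all probe sets, with a difference of -0.375 ± 0.09 (SE, limma, adjusted p = 0.0891).

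Foxa2 also had lower means at P12.5. It was 7.4, 7.5 and 6.8 in P12.5 male grafts, against 7.6, 7.8 and 7.9 in NP male grafts, and 7.5, 7.6 and 7.2 in P12.5 female grafts, against 7.7, 7.8 and 7.8 in NP female grafts. In both donor sexes every P12.5 graft lay below every NP graft, beside 18.1% of all probe sets that did not overlap in male grafts and 21.1% in female grafts. Over both sexes the difference was -0.43 ± 0.13 (SE, limma, adjusted p = 0.0442), 1.35-fold and under the fold minimum. In islets Foxa2 was 7.9, 7.9, 7.9 and 7.8 at P12.5, against 8.0, 8.1, 8.1 and 8.0 at NP. These also did not overlap, as for 5.47% of all probe sets (difference -0.175 ± 0.07, SE, limma, adjusted p = 0.310). In islets and in grafts of each donor sex alike, the gap between the groups was a single step of the rounding of 0.1.

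In a contrast that averages the 3 tissues, added after the values were seen, 3 genes had an adjusted p under 0.05. Rfx6 differed by -0.60 ± 0.12 (SE, limma, adjusted p = 0.00283, 1.52-fold lower, called), Mafa by 0.52 ± 0.11 (limma, adjusted p = 0.00331, 1.43-fold higher) and Foxa2 by -0.35 ± 0.08 (limma, adjusted p = 0.00686). It called 2.26% of all probe sets. The Rfx6 fold change sat just above the minimum and the call was lost on leaving out any of 6 arrays (NP islets 2, P12.5 female graft 3, P12.5 male graft 3, NP female graft 3, NP male graft 2 and NP male graft 3), with differences of -0.58 to -0.51 and adjusted p of 0.00349 to 0.00749 by limma, so that the fold minimum alone decided it. With the kidney mean as a covariate the difference was -0.63 (limma, adjusted p = 0.00653). Relative to the endocrine granule genes it was -0.64 and the call was kept. Relative to the granule genes without Chgb it was -0.51, under the fold minimum, and the call was lost (limma, adjusted p = 0.00174).

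**Figure D2:**
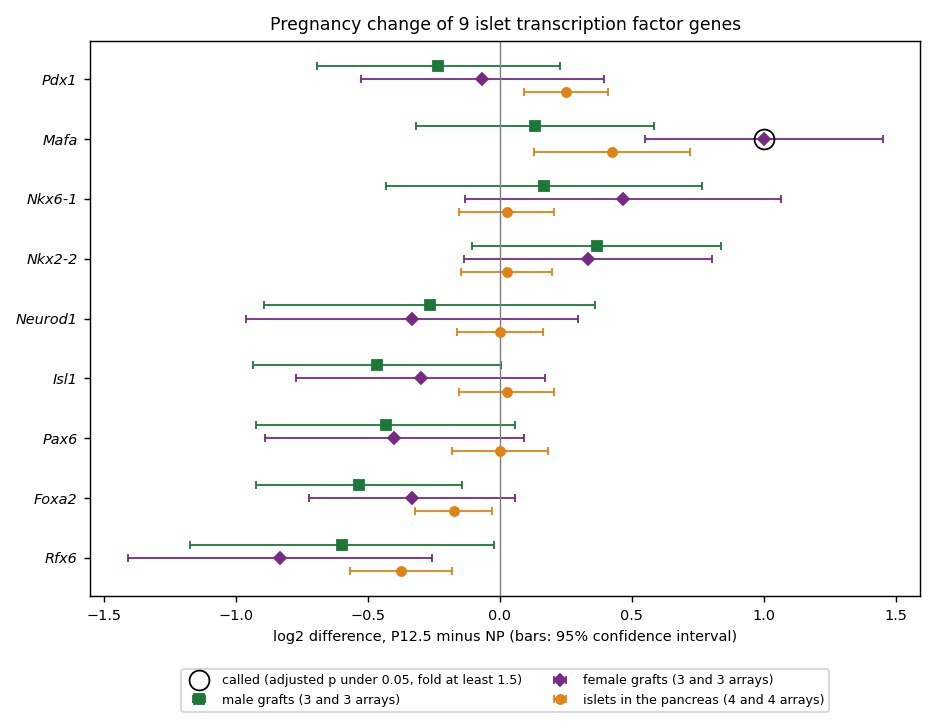
Log2 difference P12.5 minus NP (horizontal axis) of the 9 genes in male grafts (squares), female grafts (diamonds) and islets (circles), with 95% confidence intervals as bars and a ring around the called gene. Mafa in female grafts lies at 1.00 and is the one ringed value, while Rfx6 and Foxa2 lie left of zero in all 3 tissues.

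The remaining beta cell factors gave smaller changes. Pdx1, the homeodomain factor required to form the pancreas and a direct activator of insulin and Mafa, was 9.9, 9.9, 10.0 and 10.0 in P12.5 islets, against 9.8, 9.7, 9.6 and 9.7 in NP islets. The islet groups did not overlap, as for 5.47% of all probe sets, and the gap was a single step of the rounding of 0.1. The difference was 0.25 ± 0.07 (SE, limma, adjusted p = 0.162). In grafts of each donor sex the groups overlapped. Pdx1 was 9.8, 9.8 and 9.3 in P12.5 female grafts, against 9.6, 9.6 and 9.9 in NP female grafts, and 9.5, 9.6 and 8.9 in P12.5 male grafts, against 9.3, 9.8 and 9.6 in NP male grafts. The difference was -0.07 ± 0.21 in female grafts and -0.23 ± 0.21 in male grafts (SE, limma, adjusted p = 0.901 and 0.572).

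Nkx6-1, a repressor that keeps beta cells from taking on other islet fates, was level between P12.5 and NP islets. It was 9.9, 10.1, 10.1 and 10.1 in P12.5 islets, against 10.1, 10.0, 9.9 and 10.1 in NP islets. In grafts it was scattered: 10.0, 9.8 and 9.7 in P12.5 female grafts, against 8.8, 9.3 and 10.0 in NP female grafts. NP female graft 3 alone reached the P12.5 values, and the difference of 0.47 ± 0.27 did not pass (SE, limma, adjusted p = 0.358). It was 0.18 without NP female graft 1 and 0.78 without NP female graft 3. In male grafts Nkx6-1 was 9.7, 9.7 and 9.0 at P12.5, against 9.4, 9.4 and 9.1 at NP, with P12.5 male graft 3 as the lowest of the 6 arrays.

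Nkx2-2, a homeodomain factor needed to form beta cells, was 9.4, 9.5 and 8.9 in P12.5 male grafts, against 8.9 on all 3 NP male graft arrays. It was 9.3, 9.6 and 9.0 in P12.5 female grafts, against 8.7, 8.8 and 9.4 in NP female grafts. In each sex 1 array kept the groups from separating. The difference over both sexes was 0.35 ± 0.15 (SE, limma, adjusted p = 0.144), against 0.03 ± 0.08 in islets (SE, limma, adjusted p = 0.944), where all 8 values lay between 9.4 and 9.6.

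Neurod1, Isl1 and Pax6 act in all islet endocrine cells. Neurod1, a basic helix-loop-helix factor that binds the insulin promoter with E proteins, was 9.2, 9.4 and 8.7 in P12.5 male grafts, against 9.0, 9.6 and 9.5 in NP male grafts. It was 9.4, 9.4 and 8.9 in P12.5 female grafts, against 9.1, 9.4 and 10.2 in NP female grafts. The overlap was wide in both, and all 8 islet values lay between 9.4 and 9.6.

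Isl1, a LIM homeodomain factor of hormone-producing islet cells, was 9.4, 9.6 and 8.8 in P12.5 male grafts, against 9.4, 9.9 and 9.9 in NP male grafts. It was 9.8, 9.7 and 9.3 in P12.5 female grafts, against 9.8, 9.9 and 10.0 in NP female grafts. In female grafts the groups met only at the tied value of 9.8, while in male grafts they overlapped by 1 NP array. Pax6, a paired-box factor that activates hormone genes, was 9.8, 10.0 and 9.3 in P12.5 male grafts, against 9.9, 10.2 and 10.3 in NP male grafts. It was 10.0, 10.1 and 9.4 in P12.5 female grafts, against 10.1, 10.1 and 10.5 in NP female grafts. Over both sexes Isl1 differed by -0.38 ± 0.15 and Pax6 by -0.42 ± 0.16 (SE), and neither passed (limma, adjusted p = 0.114 and 0.101). In islets both genes lay within 9.8 to 10.2 and differed by 0.03 or less between the states.

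Across the 9 genes, the median pregnancy change was 0.025 in islets, -0.30 in female grafts and -0.27 in male grafts, beside medians of 0, 0.03 and 0 over all probe sets. In each donor sex Mafa, Nkx6-1 and Nkx2-2 had positive differences and the other 6 genes negative ones, though the signs of Mafa in male grafts and of Pdx1 in female grafts turned on leaving out single arrays. The change in female grafts was also set against that in islets. None of the 9 genes passed that test (0 by limma, 0.0507% of all probe sets called). An unadjusted p under 0.05 was found for 1 of the 9 genes and for 5005 of all 35511 probe sets. The largest difference among the 9 genes was again that of Mafa, at 0.575 ± 0.25 (SE, limma, unadjusted p = 0.0361, adjusted p = 0.319).

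Correlations over the 12 graft arrays were described for these same 2 sets, which were formed by the sign of the pregnancy difference on these arrays, so that the raw r in part restates that difference. Within Mafa, Nkx6-1 and Nkx2-2, Pearson's r ran from 0.61 to 0.82 over 3 pairs. Within the other 6 it ran from 0.70 to 0.94 over 15 pairs, with a median of 0.86. Between the sets the median r of 18 pairs was 0.01, with a range of -0.56 to 0.49, and the lowest was that of Mafa with Rfx6. These 12 arrays share their group differences and their content of other cells. With group means removed, the median r was 0.55 within Mafa, Nkx6-1 and Nkx2-2, 0.89 within the other 6 and 0.57 between the sets, so by these medians the 3 genes were no closer to each other than to the other 6. With the group differences left in, the between-set median of the raw r was -0.24 without P12.5 male graft 3, against 0.01 over all 12 grafts. In the 8 islet arrays r within the other 6 ran from -0.93 (Pdx1 and Foxa2) to 0.84 (Foxa2 and Rfx6), with a median of 0.24, on values that span only a few steps of the rounding. There Pdx1 and Rfx6 had an r of -0.75, and Mafa and Rfx6 one of -0.83.

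Some grafts lay at an end of the range for several members. P12.5 male graft 3 was the lowest of the 12 grafts, ties included, for 5 of the 9 genes, and NP female graft 3 was the highest for 6. The mean over the 9 genes was 8.6 to 9.3 in P12.5 male grafts, 9.08 to 9.31 in NP male grafts, 8.92 to 9.40 in P12.5 female grafts and 9.06 to 9.56 in NP female grafts. In islets it was 9.44 to 9.53 at P12.5 and 9.41 to 9.56 at NP. The stromal marker mean of NP female graft 3 was 7.96, near the low end of the grafts, while P12.5 male graft 3 was at the high end. Their part in the members' levels was not tested.

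**Figure D3:**
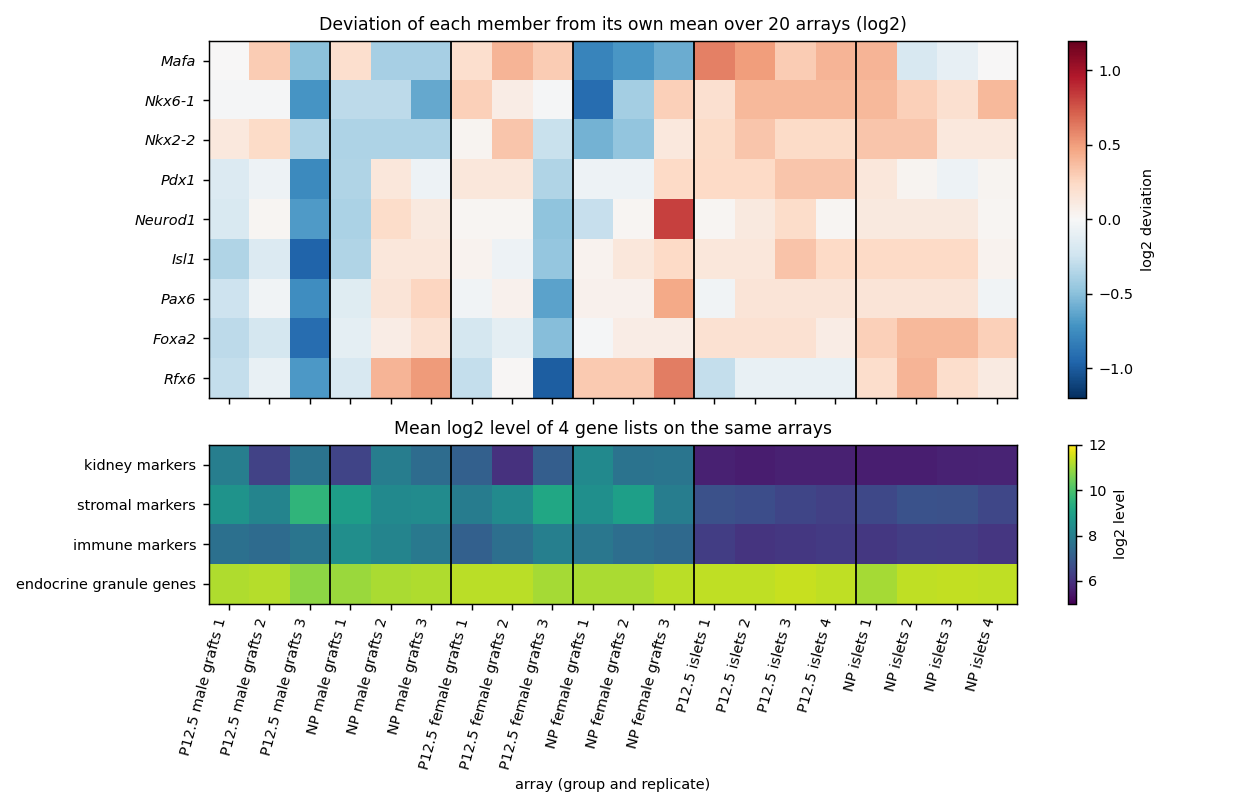
Upper panel: deviation of each of the 9 genes (rows) from its own mean over the 20 arrays (columns, by group), in log2 units from blue (lower) to red (higher). Lower panel: mean log2 level of 4 gene lists on the same arrays. P12.5 male graft 3 is blue in all 9 rows and has the highest stromal mean (9.58).

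Donor sex by itself was tested in each state. No member was called in NP grafts (0 of 9 by limma, 0.0141% of all probe sets called). An unadjusted p under 0.05 was found for 1, Mafa, and for 1777 of all 35511 probe sets. At P12.5 the number of members called was also 0 of 9 (limma, 0.0113% of all probe sets called). There 0 members had an unadjusted p under 0.05, beside 1270 of all 35511 probe sets. Apart from Mafa, the NP differences male minus female ran from -0.20 to 0, with SE of 0.18 to 0.29. At P12.5, 8 of the 9 differences were negative, and all 9 lay between -0.37 and 0.07, with SE of 0.18 to 0.29. The 95% intervals of these P12.5 differences reached as far as -0.97 for Nkx6-1 and 0.64 for Rfx6.

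Grafts were lower than islets for several members, and the members that were called differed between the states. In the NP state, Mafa in female grafts (7.9, 8.0 and 8.1) lay below all 4 NP islet arrays (9.1, 8.5, 8.6 and 8.7), and 29.5% of all probe sets did not overlap here. The difference was -0.725 ± 0.18 (SE, limma, adjusted p = 0.00687). Nkx6-1 in NP female grafts (8.8, 9.3 and 10.0) differed by -0.66 ± 0.21 from NP islets (10.1, 10.0, 9.9 and 10.1), a call made in spite of the overlap (SE, limma, adjusted p = 0.0267). Without NP female graft 1 it was -0.375, with an adjusted p of 0.168 by limma, and the call was also lost without NP female graft 2, NP islets 1 or NP islets 4. These 2 of the 9 genes were called, where 11% of all probe sets were called. Nkx2-2 differed by -0.53 ± 0.17 (SE, limma, adjusted p = 0.0236), 1.45-fold and under the fold minimum. Without NP female graft 3 it was -0.75 and called (limma, adjusted p = 0.00376).

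In NP male grafts the 2 genes called were Nkx6-1 and Nkx2-2, where 11.2% of all probe sets were called. Nkx6-1 (9.4, 9.4 and 9.1) lay below NP islets (10.1, 10.0, 9.9 and 10.1), and so did Nkx2-2 (8.9 on all 3 arrays, against 9.6, 9.6, 9.4 and 9.4), where 28.7% of all probe sets did not overlap. The differences were -0.725 ± 0.21 for Nkx6-1 and -0.60 ± 0.17 for Nkx2-2 (SE, limma, adjusted p = 0.0175 and 0.0136). The first call was lost without NP male graft 3, and the second without NP islets 1 or NP islets 2. Mafa differed by -0.225 ± 0.18 (SE, limma, adjusted p = 0.376), and its groups overlapped. Isl1, Pax6, Neurod1, Pdx1 and Rfx6 differed from NP islets by -0.22 to 0.175 in grafts of either sex. Of these, 0 passed the test by limma and 0 had an unadjusted p under 0.05. Of all 35511 probe sets, 14472 had one in female grafts and 13577 in male grafts. Foxa2 differed by -0.28 ± 0.13 in grafts of both sexes (SE, limma, adjusted p = 0.123 in female and 0.131 in male grafts).

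At P12.5 the called members were others. A call at P12.5 but not at NP, or the reverse, does not show a difference between the states. Nkx6-1 in male grafts differed from islets by -0.725 at NP and by -0.58 at P12.5, where it was not called (limma, adjusted p = 0.0701). The states were tested against each other for female grafts only, with 0 of the 9 genes called. In male grafts, Pdx1 (9.5, 9.6 and 8.9, against 9.9, 9.9, 10.0 and 10.0 in P12.5 islets) differed by -0.62 ± 0.16 (SE, limma, adjusted p = 0.0160). Isl1 (9.4, 9.6 and 8.8, against 9.9, 9.9, 10.1 and 10.0) differed by -0.71 ± 0.17 (SE, limma, adjusted p = 0.00897). Foxa2 (7.4, 7.5 and 6.8, against 7.9, 7.9, 7.9 and 7.8) differed by -0.64 ± 0.13 (SE, limma, adjusted p = 0.00456). For all 3, and for Nkx6-1 (9.7, 9.7 and 9.0, against 9.9, 10.1, 10.1 and 10.1), the male grafts lay below the islets without overlap. Of all probe sets, 13.6% lay below in this way, 22.8% did not overlap in either direction, and 7.26% were called. P12.5 male graft 3 decided these calls: without it the differences were -0.40, -0.475 and -0.425, and 0 of the 9 genes were called.

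In P12.5 female grafts all 9 differences from P12.5 islets were negative, from -0.44 to -0.15. An unadjusted p under 0.05 by limma was found for 2 of them and for 8292 of all 35511 probe sets. Of the 9 genes 0 were called, beside 4.05% of all probe sets. The nearest was Foxa2, at 7.5, 7.6 and 7.2, against 7.9, 7.9, 7.9 and 7.8 in P12.5 islets, a difference of -0.44 ± 0.13 (SE, limma, adjusted p = 0.0571). Mafa in P12.5 female grafts differed from P12.5 islets by -0.15 ± 0.18 (SE, limma, adjusted p = 0.656), within the spread of the groups.

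In every comparison of grafts with islets, other cells differed as well. Against NP islets, NP female grafts had 21 of 28 kidney markers, 19 of 23 immune markers and 14 of 20 stromal markers called higher. There 15 of 17 acinar markers were called lower, beside 11% of all probe sets called in either direction. With the kidney mean as a covariate, 0 of the 9 genes were called in any of the 4 comparisons. That mean also separates grafts from islets, so their shares in these differences cannot be told apart. Measured relative to the mean of the endocrine granule genes, the Mafa difference in NP female grafts was -0.63 (limma, adjusted p = 0.0482), and without Chgb among these it was -0.61 and no longer called (limma, adjusted p = 0.0595). The other calls were lost relative to the granule genes: Nkx6-1 in NP female grafts was -0.56 (limma, adjusted p = 0.0553), Nkx6-1 and Nkx2-2 in NP male grafts were -0.54 and -0.41 (limma, adjusted p = 0.0575 and 0.0552), and the Isl1, Foxa2 and Pdx1 differences in P12.5 male grafts were -0.44, -0.37 and -0.35, below the fold minimum.

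**Figure D4:**
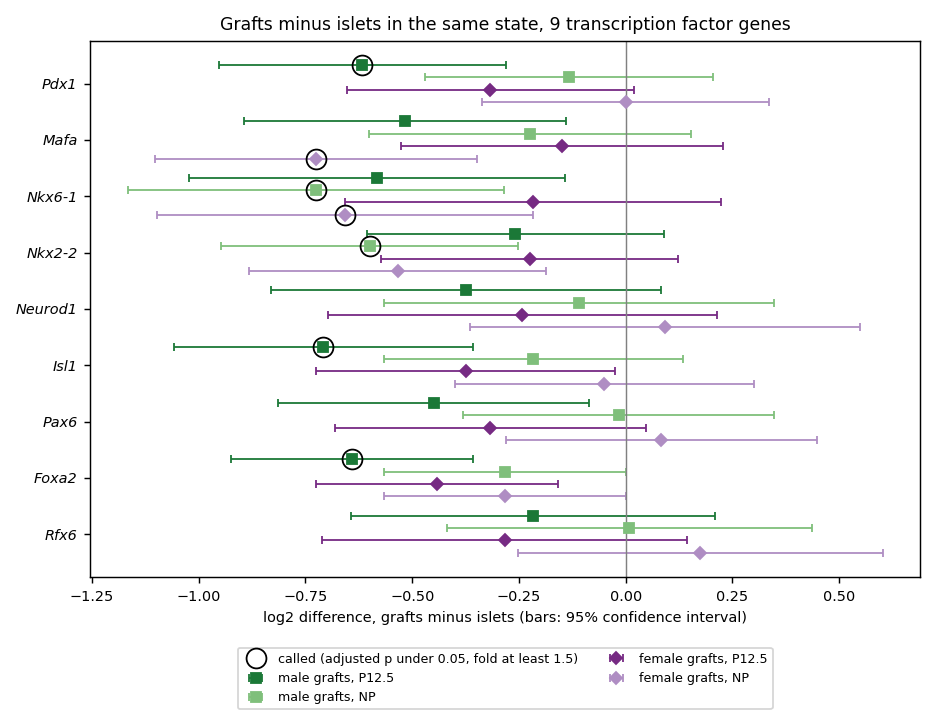
Log2 difference grafts minus islets of the same state (horizontal axis) of the 9 genes, with 95% confidence intervals as bars: squares are male grafts, diamonds are female grafts, dark is P12.5 and light is NP, and rings mark called values. The ringed values are Mafa and Nkx6-1 in NP female grafts, Nkx6-1 and Nkx2-2 in NP male grafts, and Pdx1, Isl1 and Foxa2 in P12.5 male grafts.

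Set in order, the levels of a gene in the 6 groups seldom separated. Pdx1 was highest in P12.5 islets (9.95 ± 0.06, SD, n = 4), and all the other groups overlapped with their neighbours in the order, down to P12.5 male grafts (9.33 ± 0.38, SD, n = 3). Mafa in NP female grafts (8.0 ± 0.10, SD, n = 3) was set apart at the low end from NP male grafts (8.5 ± 0.35, SD, n = 3). Foxa2 was highest in NP islets (8.05 ± 0.06, SD, n = 4), apart from P12.5 islets (7.88 ± 0.05, SD, n = 4). For Rfx6 the NP groups took the first 3 places and the P12.5 groups the last 3, with NP islets (9.73 ± 0.13, SD, n = 4) apart from P12.5 islets (9.35 ± 0.10, SD, n = 4). For Nkx6-1, Nkx2-2, Neurod1, Isl1 and Pax6 every group overlapped with the next in the order.

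Of 26 other listed islet transcription factors 22 were measured, and 0 were called by limma in islets, female grafts or male grafts. In these comparisons 6, 5 and 3 had an unadjusted p under 0.05, beside 4208, 7529 and 6926 of all 35511 probe sets. Over both graft sexes 2 of the 22 factors were called, both lower. St18, a zinc finger factor, averaged 8.03 in P12.5 female grafts and 8.73 in NP female grafts, and 7.90 in P12.5 male grafts and 8.6 in NP male grafts (difference over both -0.70 ± 0.18, SE, limma, adjusted p = 0.0274). Etv1, an ETS family factor, averaged 8.13 in P12.5 female grafts and 8.93 in NP female grafts, and 8.07 in P12.5 male grafts and 8.63 in NP male grafts (difference over both -0.68 ± 0.16, SE, limma, adjusted p = 0.0217). Neurog3, which starts the endocrine program in the embryo, differed by -0.52 over both sexes (limma, adjusted p = 0.00250), and Mnx1, a homeodomain factor of beta cells, by 0.50 in islets (limma, adjusted p = 0.0368), both under the fold minimum. Against NP islets, NP male grafts were lower in Prox1 (-0.61 ± 0.17) and Mlxipl (-0.68 ± 0.16), and P12.5 male grafts were lower than P12.5 islets in Insm1 (-0.60 ± 0.18, SE, limma, adjusted p = 0.0135, 0.00568 and 0.0309).

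Between P12.5 and NP, the known targets of these factors did not follow a single direction. Of 16 listed beta cell target genes 12 were measured. In islets 1 was called, Pcsk1, a prohormone convertase that cleaves proinsulin, at 11.7 in P12.5 islets and 11.1 in NP islets on average (difference 0.625 ± 0.07, SE, limma, adjusted p = 0.00359). Over both graft sexes 1 was called, Slc30a8, the zinc transporter of insulin granules, which fell to 11.7 in P12.5 female grafts, against 12.4 in NP female grafts, and to 11.6 in P12.5 male grafts, against 12.2 in NP male grafts (difference over both -0.65 ± 0.15, SE, limma, adjusted p = 0.0184). No target was called in female or male grafts alone (0 of 12 by limma). An unadjusted p under 0.05 was found for 3 and 5 targets, beside 7529 and 6926 of all 35511 probe sets. In P12.5 male grafts Kcnj11, a subunit of the ATP-sensitive potassium channel, was lower than in P12.5 islets (difference -0.62 ± 0.14, SE, limma, adjusted p = 0.00728). All 12 measured targets had lower means in P12.5 grafts of either donor sex than in P12.5 islets. The median difference was -0.17 in female and -0.33 in male grafts, beside -0.07 and -0.075 over all probe sets. At NP, 7 of 12 were lower in female grafts and 8 of 12 in male grafts.

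The genes whose levels most resembled each member were found over the 20 arrays, after the mean of the 8 islet arrays and of the 12 graft arrays had been removed from each. For Mafa they were Tmem256 (r = 0.90), Tagln2 (r = 0.90) and Cks1b (r = 0.89), and for Rfx6 they were Sepsecs, Cdkl1 (r = 0.96 each) and Inpp4a (r = 0.95). Foxa2 was nearest to Reep6, Pdx1 to Lrp11, Nkx6-1 to Fbxl16 and Nkx2-2 to Phka1, with r of 0.95, 0.93, 0.93 and 0.91. Neurod1 was nearest to Tcaf1, Isl1 to Kcnmb2 and Pax6 to Avl9, with r of 0.95, 0.95 and 0.96. Each was the highest of all 19938 genes on arrays that share their content of endocrine and other cells. Over the 8 islet arrays alone r was 0.87 for Mafa with Cks1b and 0.82 for Rfx6 with Sepsecs, but 0.38 for Neurod1 with Tcaf1.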

How the data were processed

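The authors hybridised total RNA to Affymetrix MoGene 1.0 ST arrays and summarised the scans by robust multichip analysis (aroma.affymetrix in R). The deposited values are log2 levels of 35511 probe sets, rounded to 1 decimal, so differences near 0.1 are at the limit of the file. No source used here gives the genome build behind the probe sets. Probe sets were named through the platform annotation, and 21789 had a single gene symbol. All probe sets were fitted with limma 3.58.1 in R 4.3.3 (lmFit and eBayes, two-sided, Benjamini-Hochberg over all probe sets): 8 arrays for islets, 12 for grafts and 20 where grafts met islets. As in the study's methods, calls needed a fold change of 1.5 or more and an adjusted p below 0.05. The fits were tested on simulated data. The number of arrays, 3 or 4 per group, limits the precision. The members and the gene lists were chosen with earlier results of these data known. Of the listed genes, those called with the largest change, at most 6 per list, are named, and for likeness the 3 genes of highest r. Alternatives covered scaling, filters, variance model, replicate block, covariate and arrays left out.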

Additional observations from a re-analysis of the deposited data

Results flagged for a closer look

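For 8 of the 18 sets of 4 islet arrays (9 genes in 2 groups), 1 array lay apart from the other 3 by more than a test for a single outlying value allows. Chance marks about 1 in 20 groups, and here the other 3 arrays were tied after rounding to 0.1, so a gap of 1 or 2 rounding steps was enough. In P12.5 islets these were Nkx6-1 at 9.9 on 1 array (10.1 on the others), Nkx2-2 at 9.6 (9.5), Pax6 at 10.0 (10.2), Foxa2 at 7.8 (7.9) and Rfx6 at 9.2 (9.4). In NP islets they were Neurod1 at 9.4 (9.5), Isl1 at 9.8 (10.0) and Pax6 at 10.0 (10.2). The mean of the endocrine granule genes also had an outlying array in each islet group, at 11.40 in P12.5 islets (11.32 to 11.33 on the others) and 11.04 in NP islets (11.32 to 11.36). The NP array was NP islets 1, which also had the highest NP level of Mafa, 9.1.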

How the results depend on the processing

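Rounding to 0.1 and groups of 3 or 4 arrays limit every value. Each member has 1 probe set, so averaging probe sets could not change a level. The number of members called in female grafts (1) became 0 with the replicate block (Mafa at 1.00, limma, adjusted p = 0.0675), 2 with all 20 arrays in the fit, 0 with the kidney marker mean as a covariate, and 0 without any one array. Over both donor sexes (1 called) it was 3 on adjusted p alone, 0 with the kidney covariate, and 0 to 2 with single arrays left out. For NP female grafts against islets (2) it was 3 on adjusted p alone, 1 with the replicate block, 0 with the kidney covariate and 1 to 3 with arrays left out (3 without NP female graft 3). For NP male grafts against islets (2) it was 1 with array medians subtracted, 0 with the kidney covariate and 1 to 2 with arrays left out. For P12.5 male grafts against islets (3) it was 0 with the kidney covariate and 0 to 6 with arrays left out (6 without P12.5 male graft 2). For the mean of the 3 tissues (1) it was 3 on adjusted p alone and 0 to 2 with arrays left out. The causes were not tested. The replicate block changed no other count. Same-numbered arrays deviated together with r of -0.24 to 0.37 only, so the numbers were not read as pairs.

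Signs turned only in differences that had not been called. With the kidney covariate, grafts minus islets became 0.022 for Isl1 (NP female), 0.19 for Mafa and 0.00096 for Nkx2-2 (P12.5 female), 0.28 for Mafa and 0.023 for Neurod1 (NP male), and 0.012 for Mafa and 0.088 for Nkx2-2 (P12.5 male). Relative to the endocrine granule genes, and then to these without Chgb (added after the values were seen), they became 0.047 and 0.069 for Isl1 (NP female), 0.078 and 0.094 for Neurod1 and 0.053 and 0.069 for Pdx1 (NP male), and 0.011 and 0.032 for Nkx2-2 and 0.053 and 0.074 for Rfx6 (P12.5 male). Without Chgb alone, Mafa (P12.5 female) became 0.011 and the Pdx1 pregnancy difference in female grafts 0.029. With single arrays left out, the Pdx1 pregnancy difference in female grafts ran from -0.15 to 0.10 and that of Mafa in male grafts from -0.05 to 0.35. Grafts minus islets in the NP state ran from -0.23 to 0.33 for Neurod1 and -0.05 to 0.15 for Pax6 in female grafts, and from -0.23 to 0.075 for Neurod1 in male grafts. The donor sex and interaction differences of the members other than Mafa were not given one by one. Of these 32 differences, 14 turned sign without some array.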

Other observations

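Among genes of the islet that are not transcription factors, Chgb, which encodes the granule protein chromogranin B, rose at P12.5 by nearly the same amount in all 3 tissues. It averaged 11.6 in P12.5 islets and 10.4 in NP islets, 11.6 in P12.5 female grafts and 10.5 in NP female grafts, and 11.5 in P12.5 male grafts and 10.4 in NP male grafts. The differences were 1.175 ± 0.08 in islets, 1.10 ± 0.12 in female grafts and 1.13 ± 0.12 in male grafts (SE, limma, adjusted p = 0.000227, 0.00414 and 0.00356). It was the only one of 9 endocrine granule genes called in each.

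Pyy, the gene of the hormone peptide YY, fell at P12.5 over grafts of both sexes, with a difference of -0.85 ± 0.16 (SE, limma, adjusted p = 0.0111). It averaged 12.3 in P12.5 female grafts and 13.1 in NP female grafts, and 11.97 in P12.5 male grafts and 12.90 in NP male grafts, while in islets it averaged 12.8 in both states. It was the 1 of 5 other islet hormones called there. In NP male grafts Ghrl, the ghrelin gene, was lower than in NP islets (difference -0.59 ± 0.11, SE, limma, adjusted p = 0.000868).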
